A study of Mus musculus with 3 samples.

Results

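The genes described here are the mouse guidance ligands and receptors measured in wild-type forelimb buds by droplet single-cell RNA sequencing. They were chosen by symbol alone: ephrins and Eph receptors, semaphorins of classes 3 to 7, plexins and neuropilins, Slits and Robos, and netrins with the Unc5 receptors. The rule took 65 of the 15122 genes in the deposited matrix. They comprised 5 ephrin-A and 3 ephrin-B ligands, 8 EphA and 5 EphB receptors, 7 class 3 and 13 class 4 to 7 semaphorins, 2 neuropilins, 8 plexins, 3 Slits, 3 Robos, 4 netrins and 4 Unc5 receptors.

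These families were first known for steering growing axons, and they also act between other migrating or adjoining cells. Ephrins sit in the membrane and bind Eph receptors on touching cells, usually causing repulsion or a sorted boundary. Secreted class 3 semaphorins bind neuropilins, which signal through plexins, whereas most semaphorins of the other classes bind plexins directly. Slits are secreted ligands of Robo receptors, and netrins bind the Unc5 receptors and Dcc. In the limb bud they are known for patterning motor and sensory axons, blood vessels, migrating muscle precursors and the adhesion of mesenchymal cells.

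Each of the 3 libraries was 1 reaction of forelimb cells from Wild Type embryos; the sources used here do not give the number of embryos. The library B6_E9.5 came from c57bl6.J at E9.5, B6_E10.5 from the same strain a day later, and 129_E9.5 from 129S6.sv at E9.5. They held 12773, 18957 and 12220 cells and 124388358, 119942504 and 93029510 unique molecular identifiers (UMIs, each 1 captured transcript), and 1728 cells carried a barcode that also occurs in another library. With 1 library for each stage and strain, those 2 factors have no replicate, and every interval below covers counting error only.

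Levels are given as CPM, the UMIs of the gene scaled to a fixed total of UMIs of the cell class and not divided by gene length, in the order B6_E9.5, B6_E10.5 and 129_E9.5. The authors' 5 clusters were read by their leading genes. Cluster 0 was limb mesenchyme, cluster 1 ectoderm, cluster 2 muscle progenitors and cluster 4 erythroid cells. Cluster 3 is left unnamed, because its 10 leading genes held 2 endothelial, 4 macrophage and 2 megakaryocyte markers, although 14 endothelial markers stood among its leading 50. Its summed macrophage markers read 41.2, 1848 and 27.3 CPM. For some genes, its values are therefore also given without the cells with at least 2 UMIs of macrophage, megakaryocyte or neural crest markers. Where this is not said, values for cluster 3 include those cells. Cluster 2 likewise held neuron markers at 180, 68.2 and 1583 CPM, and these lay within 56.4 to 85.0 CPM once cells with at least 2 UMIs of 6 neuron genes were left out. Both sets are called cells of other markers below.

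For 37 of the 65 genes (56.9%) the same class had the highest CPM in all 3 libraries, beside 41.0% of all genes. That class was the ectoderm for 18 genes (27.7%, beside 13.8% of all genes), cluster 3 for 11 (16.9%, beside 13.5%) and the mesenchyme for 5 (7.69%, beside 6.89%). It was the muscle progenitors for 3 (4.62%, beside 4.61%) and the erythroid cells for 0, beside 2.20% of all genes. Because the clusters were drawn from these same cells, the levels by class are a description with no test. Erythroid cells, which served as the low reference, read 124, 63.1 and 18.3 CPM summed over all 65 genes, against 852, 1426 and 703 CPM in mesenchyme.

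**Figure D1:**
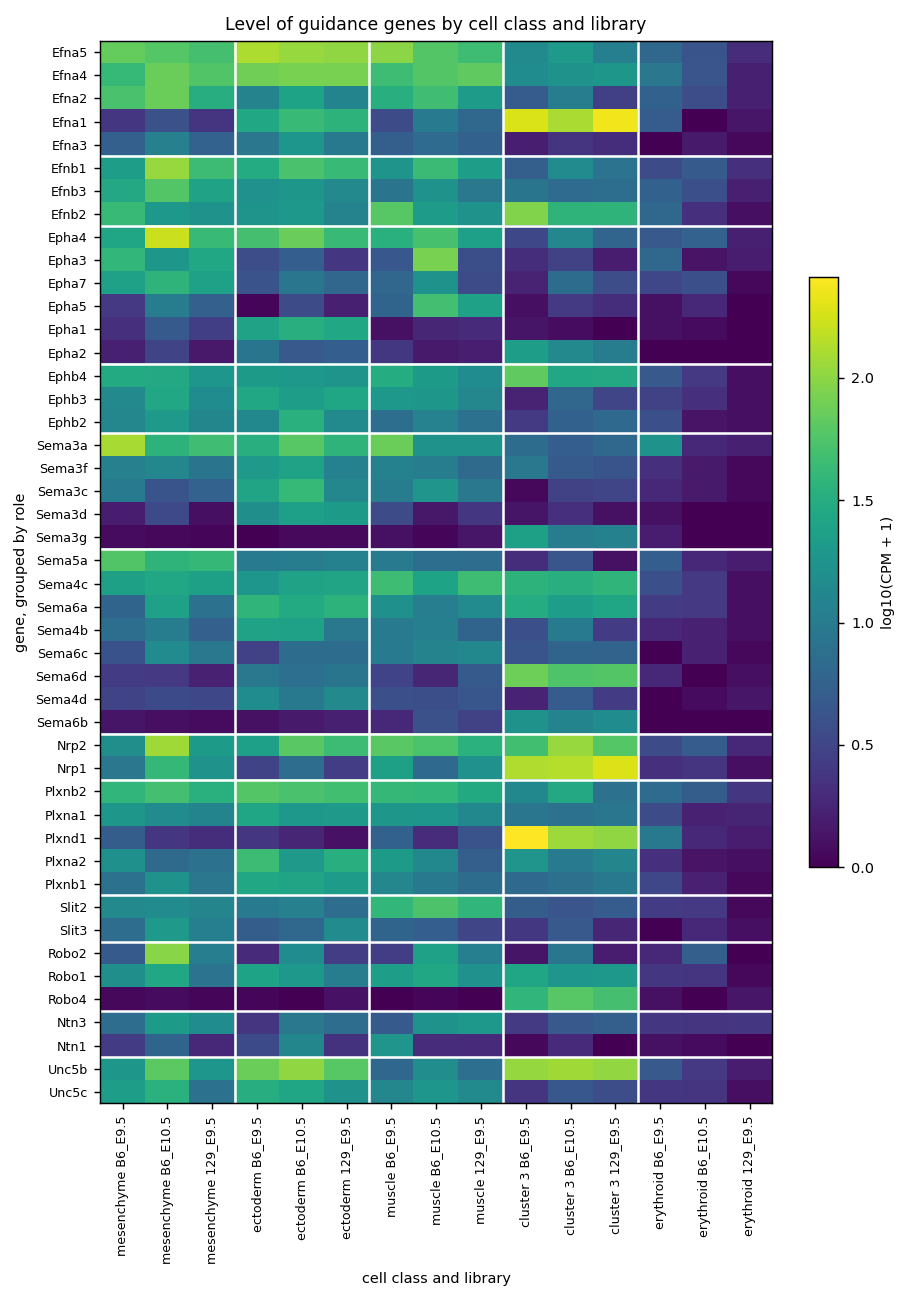
Level of the guidance genes that reached 10 CPM in at least 1 class and library (rows, grouped by role) in every cell class and library (columns), as log10 of CPM plus 1. The ectoderm columns are bright for Efna5, Efna4 and Plxnb2, the cluster 3 columns for Efna1, Nrp1, Plxnd1 and Robo4, and the erythroid columns are dark, the brightest cell being Sema3a in B6_E9.5 (16.3 CPM).

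Among the ephrin-A ligands, which are tethered to the membrane by a lipid anchor, Efna5 had mesenchymal levels of 68.4, 59.5 and 48.9 CPM and ectodermal levels of 129, 109 and 103 CPM. Efna4 was likewise higher in ectoderm in every library, with 75.9, 84.5 and 83.8 CPM against 40.6, 72.9 and 56.6 CPM in mesenchyme. Efna2 had the opposite order, at 52.0, 72.8 and 30.7 CPM in mesenchyme but 10.9, 24.2 and 11.4 CPM in ectoderm. Efna1, which lies near Efna4 on chromosome 3 (mm10, 89271733 to 89281142, with Efna4 at 89333390 to 89338028), was the cluster 3 member of the family. Its level there was 187, 128 and 231 CPM, and 190, 191 and 247 CPM without the cells of other markers, against at most 2.98 CPM in mesenchyme.

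Of the transmembrane ephrin-B ligands, Efnb1 read 21.4, 108 and 44.4 CPM in mesenchyme, so that its 3 libraries spanned a wide range. Efnb3 read 27.7, 57.1 and 23.3 CPM in mesenchyme, above its 12.7 to 17.998 CPM in ectoderm in every library. Efnb2, the ephrin known for marking arterial endothelium, was highest in cluster 3 with 88.6, 36.4 and 36.2 CPM. Its partner Ephb4, known for marking veins, read 65.8, 27.1 and 27.9 CPM in that cluster. This was its highest class in both E9.5 libraries, whereas in B6_E10.5 the mesenchyme, at 27.6 CPM, was level with it. These cluster 3 values include the cells of other markers. Without them, 429 of the 707 cells of cluster 3 in B6_E10.5 remained.

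Epha4, a receptor that binds ephrins of both families (chromosome 1, 77367185 to 77515088), read 25.3, 165 and 41.3 CPM in mesenchyme. In ectoderm it spanned less, at 49.3, 71.7 and 41.0 CPM. Epha3, which binds ephrin-A ligands such as Efna5, read 39.0, 17.7 and 26.5 CPM in mesenchyme. Epha7 was steadier over the libraries and had its top level in mesenchyme in each, at 22.8, 36.2 and 23.1 CPM. Epha1 was an ectodermal gene, with 23.5, 32.3 and 26.4 CPM there and at most 3.81 CPM in mesenchyme. Epha8 and Epha10 were nearly undetected, with 22 and 16 UMIs over all cells. The EphB receptors Ephb2 and Ephb3 read 12.5, 33.2 and 13.3 CPM and 26.8, 21.4 and 25.5 CPM in ectoderm.

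Sema3a, a secreted repellent that acts through Nrp1, was the class 3 semaphorin with most UMIs (20190 over all cells; chromosome 5, 13125414 to 13602565). It read 123, 35.3 and 46.3 CPM in mesenchyme, 31.8, 60.8 and 36.2 CPM in ectoderm, and 73.4, 16.1 and 16.1 CPM in muscle progenitors. The mesenchyme was thus the higher of the first pair at E9.5 and the ectoderm the higher at E10.5. Sema3f and Sema3c were highest in ectoderm, at 18.8, 23.7 and 10.6 CPM and at 24.8, 40.0 and 12.2 CPM. Sema3d had 14.98, 22.2 and 19.5 CPM in ectoderm and at most 2.62 CPM in any other class. Sema3g was the cluster 3 semaphorin of this class, at 22.5, 9.30 and 10.55 CPM.

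In the membrane-bound semaphorins, Sema5a was a mesenchymal gene with 56.1, 36.3 and 39.3 CPM against at most 10.6 CPM in ectoderm. Sema4c was detected in 4 of the 5 classes at 17.6 CPM or more in each library. Sema6a was highest in ectoderm in every library, at 37.2, 28.9 and 35.4 CPM. Sema6d was a cluster 3 gene, with 75.3, 55.0 and 57.3 CPM, and 76.0, 89.0 and 64.7 CPM without the cells of other markers.

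Nrp1, the co-receptor of Sema3a and of VEGF, read 134, 137 and 193 CPM in cluster 3 and 8.03, 39.8 and 16.3 CPM in mesenchyme. Nrp2, which prefers Sema3f, read 14.7, 116 and 19.5 CPM in mesenchyme. Its level in muscle progenitors was 62.0, 52.2 and 33.6 CPM. Plxnd1, the vascular plexin, read 258, 114 and 102 CPM in cluster 3, and 264, 182 and 115 CPM without the cells of other markers, against at most 4.15 CPM in mesenchyme. Plxnb2, a receptor of class 4 semaphorins, was broad, with 57.7, 51.9 and 47.1 CPM in ectoderm, and mesenchyme lower in each library (37.9, 47.7 and 33.0 CPM). Plxna1 read 25.9, 18.2 and 19.1 CPM in ectoderm, where it was highest in each library.

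The Slits were divided by class. Slit2 was highest in muscle progenitors, with 38.5, 53.6 and 37.6 CPM, and 40.9, 53.4 and 40.3 CPM after cells of other markers were left out. Slit1 was a low gene with its top level in the same class, at 2.62, 4.93 and 0.796 CPM. Slit3 was higher in mesenchyme (6.23, 19.1 and 9.89 CPM) than in ectoderm (4.19, 5.35 and 13.6 CPM) in both c57bl6.J libraries, and lower in 129_E9.5. Of the Robo receptors, Robo4 was a cluster 3 gene, as is known of endothelium, at 37.5, 59.9 and 49.0 CPM against at most 0.388 CPM in any other class. Robo1 was spread over 4 classes. Robo2 (chromosome 16) depended most on the library, with 3.80, 95.5 and 9.72 CPM in mesenchyme.

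Ntn3, the netrin with most UMIs, read 6.25, 19.6 and 14.0 CPM in mesenchyme, Ntn4 had 202 UMIs over all cells, and Ntn5 had 102. Ntn1 read 17.2, 1.00 and 0.994 CPM in muscle progenitors and 1.66, 4.95 and 0.868 CPM in mesenchyme. Among their receptors, Unc5b read 105.5, 116 and 104.95 CPM in cluster 3 and 73.2, 102 and 60.6 CPM in ectoderm. Unc5c read 21.2, 34.1 and 6.90 CPM in mesenchyme, and 129_E9.5 was again the lowest in ectoderm, at 16.5 CPM against 30.6 and 25.5 CPM. Unc5a and Unc5d were scarce, with 167 and 56 UMIs over all cells.

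Summed by role, class 3 semaphorins read 144, 55.1 and 60.5 CPM in mesenchyme, highest in B6_E9.5. The neuropilins summed to 22.7, 156 and 35.8 CPM there, highest in B6_E10.5. In cluster 3 the neuropilins summed to 181, 245 and 252 CPM and the class 3 semaphorins to 37.6, 21.5 and 24.1 CPM. Robos summed to 18.9, 123 and 17.0 CPM in mesenchyme, and Slits to 19.2, 32.8 and 21.6 CPM. The muscle progenitors had the highest Slit sum in each library, at 46.0, 62.8 and 40.6 CPM.

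**Figure D2:**
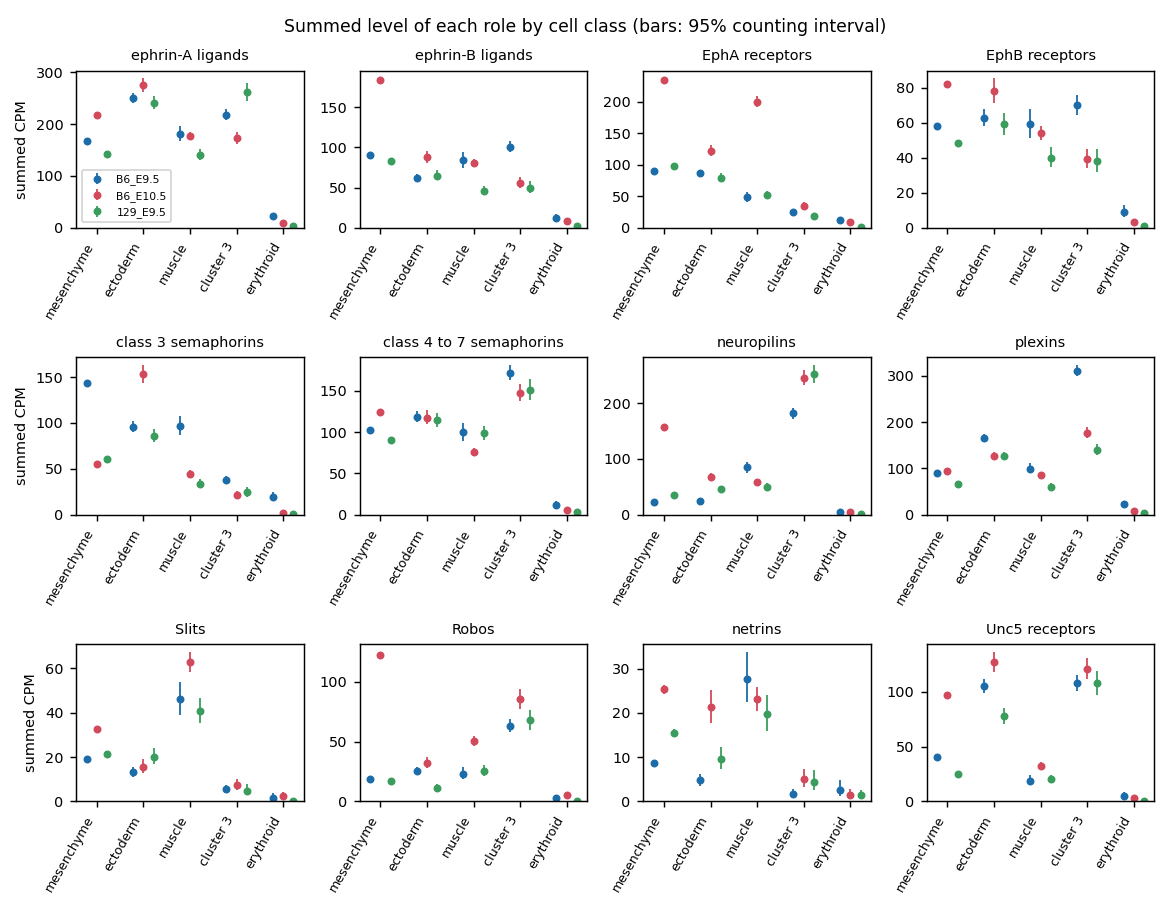
Summed CPM of the members of each of the 12 roles (panels) by cell class (x axis) and library (colour), with 95% counting intervals. Neuropilins and Robos in mesenchyme stand far higher in B6_E10.5 (156 and 123 CPM) than in the E9.5 libraries (at most 35.8 and 18.9 CPM), and Slits are highest in muscle progenitors.

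The difference between E10.5 and E9.5 in c57bl6.J was taken as the ratio of CPM, counted where it was at least 2 in either direction with at least 20 UMIs in the higher library. In mesenchyme, 26 of the 59 guidance genes with enough UMIs were higher in B6_E10.5, where the background over all 13286 genes was 14.9%, and 8 were lower, where it was 5.73%. The median log2 ratio was 0.75 over these guidance genes and 0.14 over all genes. With TMM factors, which shift all log2 ratios by -0.15, the counts were 22 and 8. By role, 4 of 6 EphA receptors, 2 of 5 EphB receptors, 2 of 2 neuropilins and 1 of 8 plexins were higher. So were 2 of 5 ephrin-A ligands, 2 of 3 ephrin-B ligands, 2 of 3 netrins and 1 of 4 Unc5 receptors. Of the semaphorins, 2 of 5 in class 3 and 6 of 13 in classes 4 to 7 were higher. The same held for 1 of 2 Robos and 1 of 3 Slits. The lower genes were 2 plexins, 2 class 3 semaphorins, and 1 each of the EphA receptors, ephrin-B ligands, Slits and Unc5 receptors.

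Robo2 had the widest gap, with 374 UMIs in B6_E9.5 mesenchyme and 8665 in B6_E10.5 (ratio 25.1, 95% interval 22.7 to 28.0). Sema4f followed from few UMIs (15 and 168, ratio 12.2, 7.16 to 22.2). Nrp2 was 7.94 times higher (7.51 to 8.39), and Epha4 was 6.52 times higher (6.25 to 6.81). These genes stood highest in B6_E10.5, with both E9.5 libraries below. The next in order were Epha5 at 6.32, Efnb1 at 5.07, Nrp1 at 4.96, Sema6a at 4.61, Sema6c at 4.48 and Sema3d at 4.38. Slit3 and Ntn1 had ratios of 3.06 and 2.99, whereas Slit2 differed little at 1.07 (0.986 to 1.16). Epha7 had a ratio of 1.59 and Efna5 one of 0.870, both short of the 2-fold count.

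The 8 genes that were lower in B6_E10.5 than in B6_E9.5 were Sema3a (ratio 0.287, 0.276 to 0.298), Plxnd1 (0.342), Sema3c (0.357), Plxna2 (0.381), Efnb2 (0.436), Slit1 (0.444), Epha3 (0.455) and Unc5a (0.467). The interval of Slit1, from 22 UMIs at E9.5 and 9 at E10.5, reached 1. All 26 higher genes were at their highest of the 3 libraries in B6_E10.5, and all 8 lower genes were at their highest in B6_E9.5. The rule itself set the order of the c57bl6.J libraries, so only the place of 129_E9.5 was free. The same count was not made over all genes. The lowest library was B6_E10.5 for 6 of the 8 and 129_E9.5 for the other 2, Efnb2 and Plxnd1. Sema3a, Plxnd1, Plxna2, Efnb2 and Slit1 were also at least 2-fold lower in 129_E9.5 than in B6_E9.5, as given below. For these genes B6_E9.5 was the library that stood apart, and the other E9.5 library did not share its level. Sema3c, Epha3 and Unc5a were not 2-fold lower in 129_E9.5.

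Other contents of the mesenchyme cluster moved between the same libraries. The 7 somite and sclerotome markers summed to 17.0, 152 and 23.0 CPM, the 6 mesothelium and flank markers to 18.5, 53.8 and 12.8 CPM, and the 15 erythroid markers to 1351, 307 and 481 CPM. At most 1 of the somite markers, 2 of the flank markers and 0 of the erythroid markers were at 0 in any of these libraries. The median depth was 8067, 5422 and 7463 UMIs, and cells under 2000 UMIs made up 27.9%, 10.6% and 2.88%. Their part in the ratios was not tested beyond the settings given in the closing section. The ratios rest on UMIs summed over the class, and such sums do not separate more cells of a kind from more RNA per cell.

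**Figure D3:**
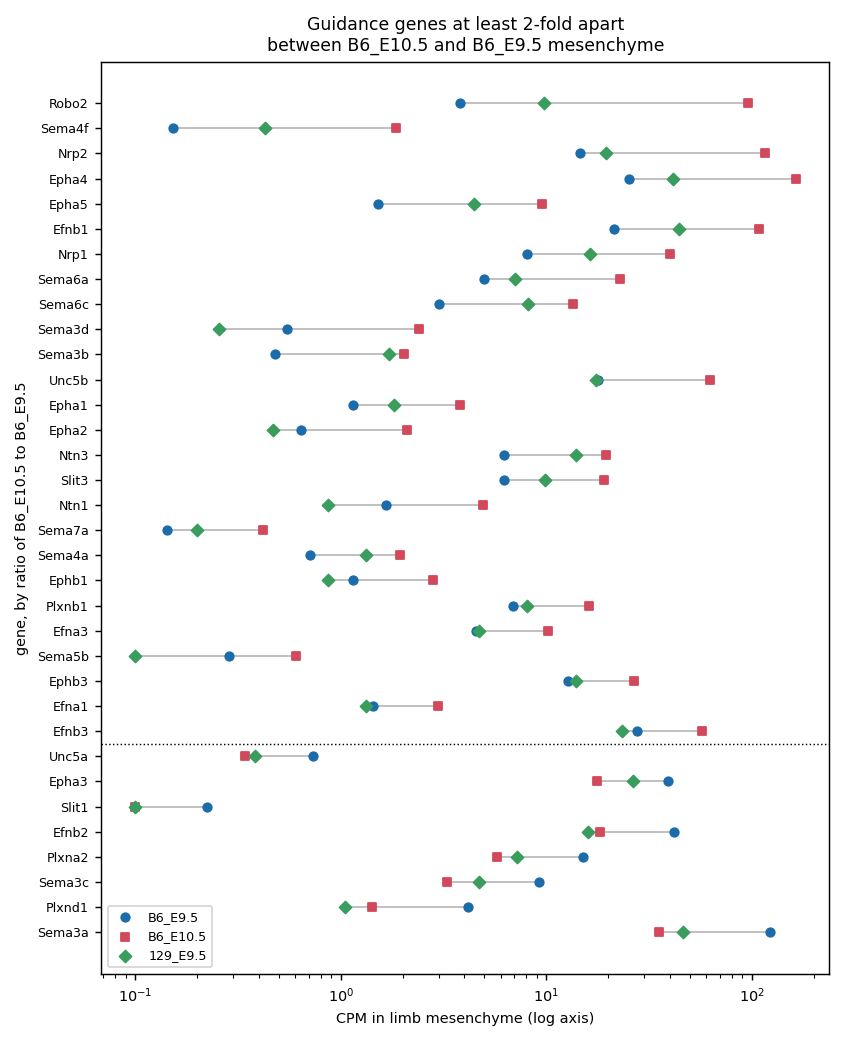
CPM in limb mesenchyme (log axis) of the 34 guidance genes at least 2-fold apart between B6_E10.5 and B6_E9.5, with a point for each library. Above the dotted line the B6_E10.5 point lies farthest right for all 26 genes, and below it the B6_E9.5 point does for all 8.

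In ectoderm, 11 of 48 guidance genes were higher in B6_E10.5 (background 6.21%) and 2 were lower (background 3.59%). Robo2 was again first, from 0.931 to 13.9 CPM with 1.74 CPM in 129_E9.5 (ratio 14.98, 7.77 to 32.4). Ntn3 and Ntn1 followed at 6.35 and 4.71, then Sema6c at 3.15, Nrp1 at 2.95, Nrp2 at 2.81, Ephb2 at 2.67, Epha7 at 2.46, Efna2 at 2.22 and Efna3 at 2.19. The eleventh was Sema3b, with 17 and 21 UMIs. Plxna2 was lower, with 44.2, 18.6 and 31.8 CPM and a ratio of 0.422, and so was Epha2 at 0.489. The 14 limb mesenchyme markers summed to 682, 578 and 546 CPM in the ectoderm cluster, against 2294, 2394 and 2286 CPM in mesenchyme. Their part in these ratios was not tested.

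In muscle progenitors, 10 of 42 were higher (background 8.37%) and 4 were lower (background 5.41%). Epha3 read 3.496, 83.4 and 2.78 CPM (ratio 23.8, 13.6 to 46.3), so that E10.5 stood apart from both E9.5 libraries. Without the cells of other markers its ratio was 20.6 (10.8 to 45.2). Epha5 read 4.95, 48.7 and 23.1 CPM (ratio 9.83), and Robo2 read 1.75, 23.1 and 9.94 CPM (ratio 13.2). The others were Ntn3 at 4.30, Efna1 at 3.51, Sema6b at 3.44 from 3 and 36 UMIs, Epha7 at 3.13, Efnb1 at 2.62, Unc5b at 2.57 and Efnb3 at 2.13. The lower genes were Ntn1 (ratio 0.0584, 0.0286 to 0.110), Sema3a (0.219), Nrp1 (0.250) and Efnb2 (0.344). For Ntn1 and Sema3a both B6_E10.5 and 129_E9.5 were low, so B6_E9.5 was the library that stood apart. In the same cluster the 23 endothelial markers summed to 280, 64.7 and 207 CPM and the 7 somite and sclerotome markers to 903, 366 and 557 CPM, so both lists were lowest in B6_E10.5. Up to 4 of the former and 2 of the latter were at 0 in a library. Without the cells of other markers, 11 of 40 genes were higher (background 8.6%) and 4 were lower (background 4.66%), and these sums were 263, 64.9 and 208 CPM and 888, 368 and 564 CPM. Their part in the 4 lower ratios was not tested. The 14 limb mesenchyme markers summed to 644, 431 and 472 CPM in the whole cluster, and their part in the ratios was not tested.

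In cluster 3, 12 of 39 were higher (background 11.1%) and 5 were lower (background 3.38%), but its contents changed between the libraries. The 8 megakaryocyte markers summed to 255, 1454 and 309 CPM and the 9 neural crest markers to 10.4, 177 and 104 CPM, beside the macrophage values above. The 14 limb mesenchyme markers summed to 128, 213 and 145 CPM, and their part in the ratios was not tested. The higher genes with the largest ratios, Robo2 (21.8, from 3 and 41 UMIs), Epha7 (8.53), Ephb3 (7.19) and Sema4d (5.59), had at most 41 UMIs each in B6_E10.5, followed by Epha4 (5.30), Efnb1 (3.11), Sema4b (3.06), Ephb2 (2.95), Plxnc1 (2.502) and Efna2 (2.33). Nrp2 and Plxnb2 made up the 12. The lower genes were Efnb2 (0.411), Ephb4 (0.412), Sema3g (0.413), Plxnd1 (0.440) and Sema3f (0.470).

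Without the cells of other markers, which left 796, 429 and 379 cells of cluster 3, 4 of 29 genes were higher (background 4.79%) and 3 were lower (background 4.05%). Sema4d, Ephb2 and Plxnc1 turned below 1, at ratios of 0.634, 0.634 and 0.922. Nrp2 then read 48.4, 166 and 54.7 CPM (ratio 3.43, 2.99 to 3.95), Robo4 had a ratio of 2.63 (2.22 to 3.11), Epha4 one of 6.52 from 14 and 36 UMIs, and Sema6c one of 2.05. Sema3g had a ratio of 0.490, Slit2 of 0.491 with an interval reaching past 1 (6 and 31 UMIs), and Plxna4 of 0.239. Plxnd1, Efnb2 and Ephb4 were no longer 2-fold apart. Endothelial markers summed to 6261, 7135 and 7294 CPM in these cells, and the macrophage markers to 3.67, 9.31 and 3.32 CPM.

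The strains were compared at E9.5 by the same rule, with the same B6_E9.5 library as the reference, so the ratios below share that library with those above. In mesenchyme, 8 of 58 guidance genes were higher in 129_E9.5 (background 5.49%) and 13 were lower (background 8.21%). The higher genes were Sema3b (ratio 3.58, 2.53 to 5.13), Epha5 (2.93), Sema4f (2.80), Sema6c (2.71), Robo2 (2.56), Ntn3 (2.24), Efnb1 (2.08) and Nrp1 (2.03). For each of these, 129_E9.5 lay between B6_E9.5 and B6_E10.5.

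The lower genes began with Plxnd1 (4.15 CPM in B6_E9.5 and 1.05 CPM in 129_E9.5, ratio 0.254) and Unc5d (0.292 from 24 and 5 UMIs). Unc5c, with 2084 and 485 UMIs, had a ratio of 0.326 (0.295 to 0.360), and 129_E9.5 was its lowest library. Plxna4 had a ratio of 0.339, Sema5b 0.350, Sema3a 0.376, Efnb2 0.379, Sema6d 0.392, Slit1 0.446 with an interval reaching 1, and Plxnc1 0.467. The remaining 3 were Sema3d, Plxna2 and Robo1, the last at 0.484. Epha7, at 1.01 (0.948 to 1.08), showed no gap between the strains beyond counting error.

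In ectoderm, 5 of 47 were higher in 129_E9.5 (background 3.56%) and 4 were lower (background 5.61%), which TMM factors turned to 4 and 5. Ntn3 read 1.30 CPM in B6_E9.5 and 6.33 CPM in 129_E9.5 (ratio 4.86, 2.59 to 9.66), Sema3b had a ratio of 3.30, Slit3 of 3.25, Sema6c of 3.16 and Nrp2 of 2.03. The lower genes were Plxna4 (0.346), Sema4b (0.351), Robo1 (0.386) and Sema3c (0.492). Robo1 was thus more than 2-fold lower in ectoderm and in mesenchyme alike, at 9.33 CPM against 24.2 CPM and at 7.22 CPM against 14.9 CPM.

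Position within the ectoderm and mesenchyme was examined with genes known to mark limb axes, and here the 3 libraries served as replicates of the split, although they differ in stage and strain. UMIs were summed per library over the cells on each side and tested with edgeR's quasi-likelihood test, with library as a block and Benjamini-Hochberg adjustment over all genes (called at 0.05). Standard errors (SE) were taken as the log2 fold change over the square root of F. Over the 5 splits, which share libraries and cells, 27 of the 58 guidance genes tested in at least 1 split were called at least once (46.6%), beside 20.7% of the 13000 genes so tested.

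Dorsal ectoderm was taken as cells with a Wnt7a UMI and no En1 UMI, and ventral ectoderm as the reverse, Wnt7a and En1 being the known dorsal and ventral ectoderm factors. Of 37 guidance genes tested, 5 were higher dorsally (background 2.62%) and 3 were lower (background 3.26%). Sema3a had the largest difference. It read 55.6 CPM dorsally and 15.1 ventrally in B6_E9.5, 126 and 25.2 in B6_E10.5, and 61.1 and 13.9 in 129_E9.5. The 2 sides did not overlap, and the log2 fold change was 2.10 (SE 0.15, adjusted p = 1.58e-06).

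Sema3c was higher dorsally in each library, at 53.9 and 11.9 CPM, 61.7 and 38.0 CPM, and 24.3 and 7.47 CPM (log2 1.51, SE 0.23, adjusted p = 0.00152). Slit3 (log2 1.33, adjusted p = 0.0452), Efnb2 (1.14, 0.0158) and Sema3f (0.78, 0.0457) were the other 3 that rose dorsally. Receptors made up the lower calls. Unc5c read 17.6 CPM dorsally and 41.4 ventrally in B6_E9.5, 15.7 and 33.7 in B6_E10.5, and 7.64 and 29.3 in 129_E9.5 (log2 -1.35, SE 0.19, adjusted p = 0.000753). Ephb3 (log2 -1.04, adjusted p = 0.00544) and Unc5b (-0.86, 0.000685) were also lower, and for these receptors no dorsal value reached a ventral one.

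Without B6_E9.5, Slit3, Ephb3, Sema3c, Efnb2 and Sema3f were no longer called (adjusted p from 0.0518 to 0.551), and without 129_E9.5 Slit3 and Sema3f were not (0.632 and 0.150). Sema3a, Unc5b and Unc5c remained called without each library. By DESeq2, Slit3, Ephb3, Efnb2 and Sema3f were not called (adjusted p from 0.236 to 0.6495). With each cell thinned to 2000 UMIs, edgeR still called Sema3a and Unc5b but not Sema3c (adjusted p = 0.0666). The other 5, Unc5c among them, had no value. The somite and sclerotome markers summed to 110 and 7.55 CPM, 38.7 and 27.3 CPM, and 128 and 33.6 CPM dorsally and ventrally, and the neural crest markers to 223 and 101, 139 and 101, and 183 and 81.6 CPM. The 13 ridge markers were lower dorsally in each library, at 1315 against 1875, 1051 against 2508 and 963 against 1648 CPM. Their part in these calls was not tested.

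Cells of the apical ectodermal ridge, the distal rim that secretes fibroblast growth factors, were taken as ectoderm cells with an Fgf8 UMI. Of 47 guidance genes tested, 3 were higher in them (background 6.29%) and 6 were lower (background 4.78%). Nrp2 rose most. It read 32.5 CPM in Fgf8-positive and 10.501 in Fgf8-negative cells of B6_E9.5, 175 and 24.1 in B6_E10.5, and 92.3 and 13.0 in 129_E9.5, with no overlap (log2 2.54, SE 0.20, adjusted p = 9.06e-05). Epha4 read 65.0 and 32.8, 163 and 41.7, and 66.1 and 24.7 CPM (log2 1.497, SE 0.17, adjusted p = 0.00056), also without overlap. Robo1 was the third (log2 0.82, adjusted p = 0.0200).

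The 6 lower genes were mostly semaphorins and ephrin-A ligands. Sema3d read 7.81 CPM in Fgf8-positive and 22.5 in Fgf8-negative cells of B6_E9.5, 2.63 and 28.6 in B6_E10.5, and 4.84 and 28.9 in 129_E9.5 (log2 -2.09, SE 0.27, adjusted p = 0.0013). Ephb2 followed at log2 -1.74 (adjusted p = 0.0012), then Sema3c at -1.38 (0.0134), Efna3 at -0.85 (0.0329), Sema3f at -0.74 (0.0202) and Efna1 at -0.42 (0.0499). Sema3c and Sema3f were thus called in both ectoderm splits, higher dorsally and lower in the ridge cells.

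Without 129_E9.5 only Nrp2 remained called (adjusted p = 0.0343), and the other 8 lay between 0.0641 and 0.279. Without B6_E9.5, Efna1, Efna3 and Sema3f lost their calls (adjusted p from 0.0550 to 0.169), and without B6_E10.5 Efna1 and Efna3 did (0.0630 and 0.0740). DESeq2 did not call Robo1, Efna1, Efna3 and Sema3f (adjusted p from 0.118 to 0.588). After thinning each cell to 2000 UMIs, Robo1 (log2 0.34, adjusted p = 0.665), Sema3f (-0.31, 0.721) and Efna1 lost their calls. Efna3 had no value after thinning. Neuron markers summed to 140 and 49.1 CPM, 174 and 71.9 CPM, and 197 and 137 CPM in Fgf8-positive and Fgf8-negative cells, and somite markers to 10.9 and 71.4, 17.8 and 35.7, and 7.25 and 93.0 CPM. The 9 neural crest markers were lower in Fgf8-positive cells, at 100.4 against 178, 82.3 against 139 and 66.5 against 145 CPM. So were the 6 flank and mesothelium markers, at 2.36 against 13.4, 1.97 against 9.04 and 0.403 against 7.03 CPM. The part of these lists in the calls was not tested.

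**Figure D4:**
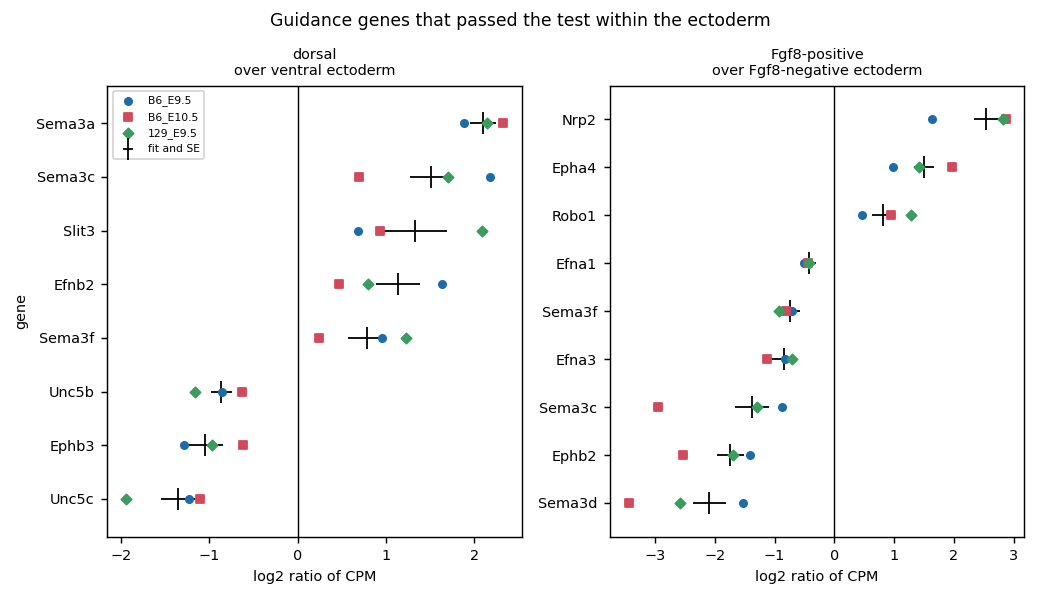
Log2 ratio of CPM between the cell groups of the 2 ectoderm splits for each guidance gene that passed the test (rows), with a point for each library and the fitted value with its SE in black. Sema3a lies farthest right in the dorsal split (fitted 2.10) and Nrp2 in the Fgf8 split (2.54), and every library lies on the same side of 0 as the fit.

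In the mesenchyme, Lmx1b, the factor that specifies dorsal limb mesenchyme, divided cells with a UMI from those with none. Of 57 guidance genes tested, 5 were higher in Lmx1b-positive cells (background 2.67%) and 8 were lower (background 2.94%), mostly by small amounts. Efnb2 read 50.1 and 33.9 CPM in B6_E9.5, 30.7 and 16.3 in B6_E10.5, and 20.5 and 14.0 in 129_E9.5 (log2 0.66, SE 0.06, adjusted p = 0.000133). The others that rose were Ntn1 (log2 0.94, adjusted p = 0.0032), Epha7 (0.45, 0.000748), Sema5a (0.35, 0.00159) and Epha4 (0.28, 0.0116), each higher in 3 of 3 libraries.

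Epha4, the receptor known for steering motor axons in dorsal limb, read 25.9 and 24.6 CPM, 200 and 159 CPM, and 50.7 and 37.4 CPM, so that the gap within a library was far smaller than that between stages. Unc5c was the most reduced, with 11.7 and 30.8 CPM in B6_E9.5, 25.2 and 35.6 in B6_E10.5, and 3.19 and 8.46 in 129_E9.5 (log2 -1.06, SE 0.13, adjusted p = 0.00107). The other 7 were Efna1 (-0.69), Sema3c (-0.63), Nrp1 (-0.51), Epha3 (-0.35), Unc5b (-0.34), Efnb3 (-0.24) and Efnb1 (-0.16), with adjusted p between 0.00537 and 0.0433. Sema3c was lower in 2 libraries and higher in B6_E10.5, at 3.59 against 3.22 CPM.

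Depth differed between the sides, with median UMIs of 17533 and 4546 in B6_E9.5, 7643 and 5225 in B6_E10.5, and 8737.5 and 7047 in 129_E9.5. After each cell was thinned to 2000 UMIs, 3 of the 5 higher genes (Efnb2, Epha7 and Sema5a) and 1 of the 8 lower genes (Unc5c) kept their calls, and the log2 of Sema3c was 0.16, so its direction turned. Efna1 had no value after thinning. Without 129_E9.5 only Efnb2 and Epha7 remained called (adjusted p 0.0193 and 0.0346), and the others lay between 0.0659 and 0.322. Without B6_E9.5, Efnb3, Efna1 and Sema3c lost their calls (0.158 to 0.306), and without B6_E10.5 Efnb1 did (0.0635). DESeq2 did not call Efnb3, Epha3, Efna1, Sema3c and Efnb1 (adjusted p from 0.182 to 0.558). The flank and mesothelium markers summed to 8.58 against 28.6, 66.0 against 51.9 and 8.26 against 14.7 CPM in Lmx1b-positive and Lmx1b-negative cells. Neural crest markers summed to 31.9 against 20.1, 24.9 against 25.1 and 47.2 against 31.7 CPM. Erythroid markers summed to 1003 against 1706, 290 against 310 and 508 against 469 CPM. The part of these lists in the Lmx1b calls was not tested.

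Posterior mesenchyme was taken as cells with a Hand2 UMI and no Alx4 UMI, and anterior mesenchyme as the reverse, since these factors are known to mark opposite sides. Of 48 guidance genes tested, edgeR called 3 higher posteriorly (background 0.982%) and 0 lower (background 0.884%), and at an unadjusted p of 0.05 it gave 9 and 5. DESeq2 called 0 in either direction, with 7 and 3 at that unadjusted p. Unc5c read 33.4 and 9.52 CPM in B6_E9.5, 44.6 and 30.2 in B6_E10.5, and 11.0 and 2.11 in 129_E9.5 (log2 1.28, SE 0.22, adjusted p = 0.0161). Plxna4 (log2 1.46, adjusted p = 0.0321, with 1 anterior UMI in 129_E9.5) and Robo1 (0.54, 0.0377) were higher in 3 of 3 libraries as well.

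None of those 3 calls held without B6_E9.5 (adjusted p from 0.203 to 0.506) or without 129_E9.5 (0.128 to 0.174). With cells thinned to 2000 UMIs, Unc5c (log2 0.87, adjusted p = 0.658) and Robo1 (0.26, 0.999) were not called, and Plxna4 had no value. The flank and mesothelium markers were higher posteriorly, at 24.1 against 7.51 CPM, 75.3 against 16.8 CPM and 21.7 against 2.46 CPM. The 9 neural crest markers were lower posteriorly, at 18.0 against 45.3, 21.3 against 31.6 and 23.3 against 52.0 CPM. The part of either list in the calls was not tested.

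Distal mesenchyme was taken as cells with an Lhx2 UMI and no Meis1 UMI and proximal mesenchyme as the reverse, Meis1 being a known proximal homeobox gene. Of 53 guidance genes tested, 2 were higher distally (background 4.27%) and 12 were lower (background 5.73%). The median log2 fold change was -0.20 over the guidance genes and 0.01 over all genes. Plxna2, a plexin of the class A group that serves neuropilins and class 6 semaphorins, fell most. It read 6.08 CPM distally and 30.3 proximally in B6_E9.5, 1.63 and 12.2 in B6_E10.5, and 3.08 and 17.0 in 129_E9.5, with no overlap (log2 -2.47, SE 0.13, adjusted p = 0.000745).

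Unc5c read 15.6 and 36.1 CPM, 18.7 and 47.7 CPM, and 4.69 and 10.8 CPM (log2 -1.22, SE 0.07, adjusted p = 0.000964). Epha7 read 16.9 and 30.8 CPM, 18.7 and 55.5 CPM, and 15.7 and 37.2 CPM, and no distal value reached a proximal one (log2 -1.20, SE 0.13, adjusted p = 0.00578). Its ligand Efna5 was lower distally too, with 60.2 and 80.6, 40.8 and 84.1, and 42.3 and 65.6 CPM (log2 -0.66, adjusted p = 0.0240). The other lower genes were Sema3d (log2 -1.62), Sema6a (-0.82), Efnb3 (-0.81), Efna3 (-0.71), Ephb3 (-0.65), Epha3 (-0.58), Robo1 (-0.45) and Sema3a (-0.37), with adjusted p between 0.00816 and 0.0459.

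Slit3 was higher distally, at 7.81 and 5.85 CPM, 28.3 and 11.7 CPM, and 12.5 and 7.23 CPM (log2 0.91, SE 0.17, adjusted p = 0.0268). Epha2 was the other (log2 2.21, SE 0.52, adjusted p = 0.0495), from 95 distal and 10 proximal UMIs in B6_E10.5 and at most 19 distal UMIs in the other libraries. Without 129_E9.5, 0 of the 14 calls held by edgeR (adjusted p from 0.0528 to 0.195). In that fit 2 guidance genes higher and 17 lower had an unadjusted p under 0.05. The share over all genes at that level was not counted. DESeq2 on all 3 libraries called 1 higher and 11 lower, but not Efna3, Epha2, Robo1 and Sema3d (adjusted p from 0.0634 to 0.123). Without B6_E9.5 Robo1 lost its call (0.161), and without B6_E10.5 Efna3, Epha2 and Sema3d did (0.0579 to 0.124). After thinning to 2000 UMIs, 6 of the 14 calls were kept, all lower (Plxna2, Efnb3, Ephb3, Efna5, Unc5c and Epha7). Robo1 then had a log2 fold change of -0.04 (adjusted p = 0.981) and Epha3 one of -0.25 (0.441). Sema6a, Efna3, Sema3a and Slit3 also lost their calls (0.167 to 0.325), and Epha2 and Sema3d had no value.

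The proximal side also held more flank and mesothelium markers, at 48.8 against 6.08 CPM, 95.9 against 9.71 CPM and 33.9 against 3.42 CPM, and more somite markers, at 20.5 against 13.5, 206 against 70.2 and 33.4 against 16.2 CPM. Of these, at most 2 flank and 2 somite markers were at 0 on a side in a library. The 12 muscle progenitor markers were also higher proximally, at 20.9 against 14.9, 65.7 against 20.8 and 17.7 against 12.5 CPM. The 9 neural crest markers were lower proximally, at 19.0 against 28.5, 17.1 against 38.4 and 33.3 against 36.3 CPM. The part of these lists in the distal and proximal calls was not tested.

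**Figure D5:**
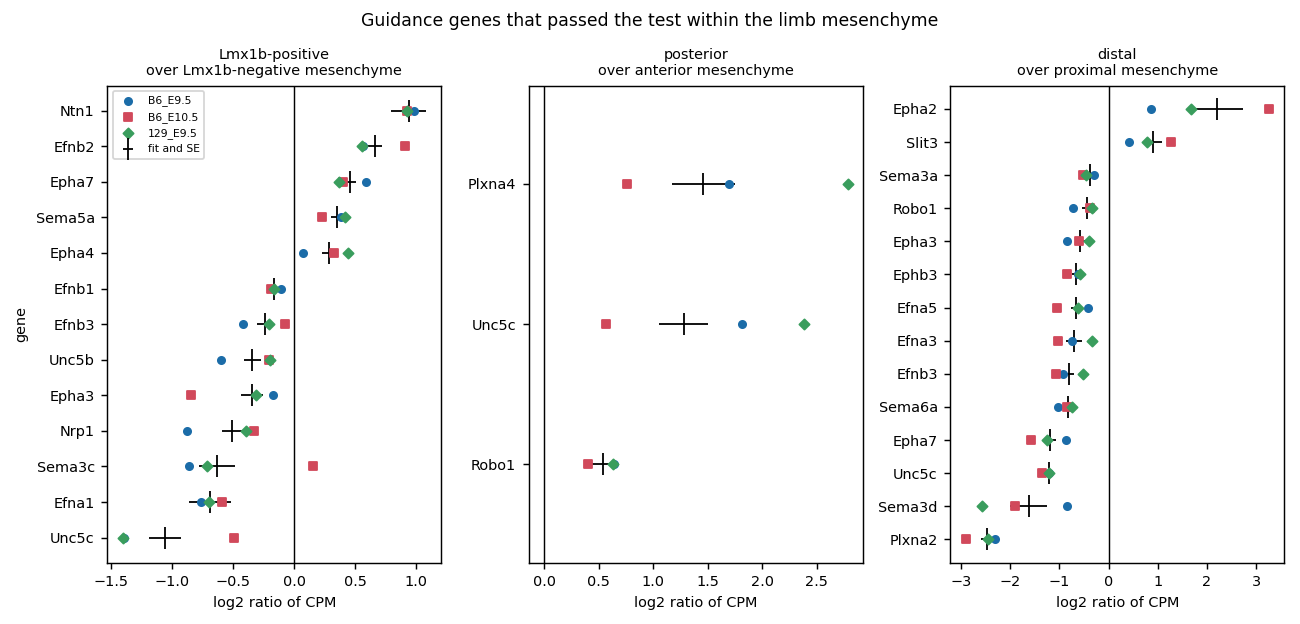
Log2 ratio of CPM for each guidance gene that passed the test in the 3 mesenchyme splits (panels), with a point for each library and the fitted value with its SE in black. Plxna2 lies farthest left in the distal split (fitted -2.47), and Sema3c in the Lmx1b split has 1 library on the other side of 0.

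The promoters of the 3 genes with the smallest p among the proximal calls are shown as the sequence next to the transcription start, since TGACAG is the core of the site known for Meis and Pbx factors. Each line gives the 250 bases before the start from RefSeq (GRCm38.p6, the build of the files), 5′ to 3′ on the gene's strand, with capitals for any TGACAG or its reverse complement CTGTCA.
Plxna2 (chr1:194619579-194619828, plus strand): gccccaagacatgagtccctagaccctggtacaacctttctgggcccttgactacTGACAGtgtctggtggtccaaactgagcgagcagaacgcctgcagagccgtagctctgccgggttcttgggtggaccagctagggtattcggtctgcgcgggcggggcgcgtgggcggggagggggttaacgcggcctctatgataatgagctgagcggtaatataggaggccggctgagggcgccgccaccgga
Unc5c (chr3:141465314-141465563, plus strand): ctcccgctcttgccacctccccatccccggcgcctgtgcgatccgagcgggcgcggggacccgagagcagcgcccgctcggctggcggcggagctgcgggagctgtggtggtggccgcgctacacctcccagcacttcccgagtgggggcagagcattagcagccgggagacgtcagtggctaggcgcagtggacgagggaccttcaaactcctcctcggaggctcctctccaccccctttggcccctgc
Epha7 (chr4:28812881-28813130, plus strand): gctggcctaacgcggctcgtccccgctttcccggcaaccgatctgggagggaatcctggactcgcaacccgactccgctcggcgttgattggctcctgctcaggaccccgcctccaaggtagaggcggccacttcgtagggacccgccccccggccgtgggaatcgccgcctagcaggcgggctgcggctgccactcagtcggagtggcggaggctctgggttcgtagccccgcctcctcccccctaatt

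Plxna2 held 1 match, 195 bases before its start, and the windows of Unc5c and Epha7 held 0. Promoters were found for 56 of the 65 guidance genes, 72 promoters in all, and TGACAG was in 15.3% of them beside 15.9% of the 32851 promoters in the table. The same windows were searched on both strands for TAATTA (2.78% of guidance promoters, 4.84% of all), CAATAAA (2.78%, 4.204%), CACGTG (5.56%, 6.02%) and CAGCTG (13.9%, 13.0%). The GC box GGGCGG was in 70.8% of guidance promoters and 32.7% of all. These are counts of letters in a window and not of bound sites, and the motifs were chosen with the results known.

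The cytoplasmic effectors of these receptors were a list of 49 genes with a row each. In the distal split, 1 of 46 tested was higher (background 4.27%) and 4 were lower (background 5.73%). Crmp1, a collapsin response mediator of semaphorin signalling, read 59.1 and 29.8 CPM, 38.7 and 11.6 CPM, and 70.9 and 39.1 CPM distally and proximally (log2 1.22, SE 0.17, adjusted p = 0.0115). Its relatives Dpysl3 (log2 -0.90, adjusted p = 0.00793) and Dpysl4 (-0.98, 0.0149) were lower distally, as were Srgap3, a GTPase activator downstream of Robos (-1.39, 0.0446), and the plexin-binding GTPase Rnd3 (-0.49, 0.0488). In Fgf8-positive ectoderm 3 of 43 were higher (background 6.29%) and 1 was lower (background 4.78%). The Rac activator Tiam1 (log2 1.16, adjusted p = 0.000812), Srgap1 (1.43, 0.00268) and Rnd3 (0.75, 0.0077) rose, and Crmp1 fell by 1.47 on the log2 scale (adjusted p = 0.00323). Without 129_E9.5 all of these lost their calls, with adjusted p from 0.09996 to 0.235 for the 5 distal ones and from 0.0709 to 0.201 for the 4 of the Fgf8 split.

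In dorsal ectoderm 1 of 38 was higher (background 2.62%) and 1 lower (background 3.26%), in the Lmx1b split 2 and 1 of 48 (background 2.67% and 2.94%), and in the posterior split 1 and 0 of 46 (background 0.982% and 0.884%). Farp1, an exchange factor that binds class A plexins, was higher in dorsal ectoderm (log2 0.65, adjusted p = 0.0298) and in Lmx1b-positive mesenchyme (0.21, 0.0255), the latter with Trio (0.19, 0.0328). Srgap1 was lower in dorsal ectoderm (log2 -0.80, adjusted p = 0.0365), and Dpysl2 was lower in Lmx1b-positive mesenchyme (-0.14, 0.0328). Rnd3 was higher posteriorly (log2 0.78, adjusted p = 0.0134), where edgeR called 0 of 46 effectors lower, with 0 at an unadjusted p of 0.05 and 0 by DESeq2. Without 129_E9.5 only Srgap1 of these 6 calls was kept (adjusted p = 0.0146), and the others lay between 0.0849 and 0.358. Without B6_E9.5, Srgap1 (0.362), Farp1 in dorsal ectoderm (0.191), Trio (0.123) and Dpysl2 (0.104) lost their calls. DESeq2 did not call Farp1 and Srgap1 in dorsal ectoderm (adjusted p 0.618 and 0.727) or Farp1, Trio and Dpysl2 in the Lmx1b split (0.1065 to 0.243).

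Of 28 other guidance ligands and receptors listed, 26 had a row. Distally, 6 of 22 tested were lower (background 5.73%) and 0 higher (background 4.27%; 2 higher at an unadjusted p of 0.05, and 0 by DESeq2). The chemokine Cxcl12 led them, with 1.68 and 11.8 CPM, 11.0 and 87.1 CPM, and 3.52 and 24.0 CPM distally and proximally (log2 -2.84, SE 0.09, adjusted p = 7.67e-05), followed by Flrt3, Lrig3, Flrt2, Rgma and Hgf, named after their values were seen. Without 129_E9.5 only Cxcl12 kept its distal call (adjusted p = 0.0173), and the other 5 lay between 0.0838 and 0.197. Of 23 tested in the Lmx1b split, Cxcl12 and Flrt2 were lower (background 2.94%) and Lgr4 was higher (background 2.67%), and without 129_E9.5 these calls were lost (0.07996 to 0.159). Of 18 tested in the posterior split, Flrt3 was higher (background 0.982%) and Ntng1 lower (background 0.884%), and both calls were lost without 129_E9.5 (0.1202 and 0.0851) and without B6_E9.5 (0.254 and 0.0933). By DESeq2, Flrt3 was not called posteriorly (adjusted p = 0.428). Over both lists, 2 of the 26 calls were kept without 129_E9.5, 20 without B6_E9.5, 26 without B6_E10.5, 19 by DESeq2, 9 after thinning to 2000 UMIs and 0 without the replicate block. After thinning, 12 of the 26 were lost and 5 had no value. In both ectoderm splits edgeR called 0 of this list in either direction, with 1 higher and 2 lower of 14 at an unadjusted p of 0.05 in the dorsal split and 1 and 1 of 18 in the Fgf8 split. DESeq2 also called 0 in both.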

How the data were processed

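Forelimb cells of 3 wild-type libraries were profiled with 10x 3′ version 2 chemistry, per the labels. The authors deposited raw UMI counts per gene and cell with a table of stage, strain and cluster number per cell, and Cell Ranger 3 and mm10 are given per the submitters' processing notes. Cells were assigned to libraries by stage and strain, and no further filter was applied. Of the gene identifiers, 14775 carry the version of GENCODE M21, including all 65 guidance genes. The members, gene lists and splits were chosen with earlier results of these data known.

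UMIs were summed per class and library. CPM carry exact Poisson and ratios exact conditional binomial 95% intervals. Splits were tested with edgeR 4.0.16 in R 4.3.3 (TMM, low-count filter, library as block because both sides of a split come from the same reaction). The genes that define a split were taken out before its fit, and p-values measure the spread of the split over libraries that differ in stage and strain. Alternatives were DESeq2 1.42.0, relative log expression factors, no low-count filter, no block, cells thinned to 2000 UMIs (shallower cells left out), no cells of the deepest 5%, and each library left out. Doublets were not called. Named genes were those with most UMIs in each role (up to 3), those called in a split (up to 12 a direction), those past 2-fold (up to 10 a direction) and 13 listed by name; any other gene was named after its values were seen. Fits were run on simulated counts with a fixed dispersion and the same planted change in every library. Split effects that differ between libraries were not simulated.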

Additional observations from a re-analysis of the deposited data

Results flagged for a closer look

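For 4 guidance genes the stage ratio (B6_E10.5 over B6_E9.5) was at least 2-fold in opposite directions in different cell classes, with neither interval reaching 1. With 1 library a stage, the difference between classes was not tested. The same count was not made over all genes, so the number has no background to be read against. Epha2 had a ratio of 3.27 in limb mesenchyme and 0.489 in ectoderm. Epha3 had a ratio of 0.455 in limb mesenchyme and 23.8 in muscle progenitors. Nrp1 had ratios of 4.96 in limb mesenchyme and 2.95 in ectoderm and a ratio of 0.250 in muscle progenitors, where the 23 endothelial markers summed to 280 CPM at E9.5 and 64.7 CPM at E10.5 of c57bl6.J, with 207 CPM in the 129S6.sv library, and the 7 somite and sclerotome markers to 903, 366 and 557 CPM in that order. Ntn1 had ratios of 2.99 in limb mesenchyme and 4.71 in ectoderm and a ratio of 0.0584 in muscle progenitors. The part of those markers in the muscle progenitor ratios of Nrp1 and Ntn1 was not tested.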

How the results depend on the processing

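Counts of called guidance genes are given as higher and lower. Apart from the ranges without 1 library, only counts that moved past a set fold from the main count are listed in this section. An unlisted count may still differ by less. Without the replicate block the counts fell to 0 and 0 in each split except 1 lower for Fgf8, with up to 6 in a direction at an unadjusted p of 0.05. DESeq2 gave 2 higher for dorsal ectoderm, 3 lower for Fgf8, 3 lower for Lmx1b, 0 higher for the posterior split (7 at an unadjusted p of 0.05) and 1 higher for the distal split. Relative log expression factors gave 3 higher for dorsal ectoderm. Without the low-count filter, dorsal ectoderm had 7 lower, Fgf8 7 higher, and the posterior split 8 higher and 3 lower. Thinning to 2000 UMIs gave 1 and 1 for dorsal ectoderm, 3 lower for Fgf8, 1 lower for Lmx1b, 0 higher for the posterior split (2 at an unadjusted p of 0.05) and 1 and 6 for the distal split. Without the deepest 5% of cells, Lmx1b had 4 lower and the distal split 1 higher. Leaving out 1 library at a time gave 1 to 8 higher and 2 to 8 lower for dorsal ectoderm, 1 to 5 and 0 to 5 for Fgf8, 2 to 6 and 0 to 12 for Lmx1b, 0 to 6 and 0 to 2 for the posterior split, and 0 to 7 and 0 to 16 for the distal split. The zeros among these came without 129_E9.5, and for the posterior split also without B6_E9.5. These fits have 2 libraries.

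For ratios, a minimum of 100 UMIs gave 4 higher and 1 lower for stage in ectoderm, 2 lower in muscle progenitors, 2 higher in cluster 3, 8 lower for strain in mesenchyme and 1 higher in ectoderm. Thinning gave 6 higher for stage in ectoderm, 2 lower in muscle progenitors, 2 higher in cluster 3 and 3 higher for strain in ectoderm. Leaving out cells of other markers gave 4 higher and 3 lower in cluster 3. Reversed were Sema3c for Lmx1b when thinned (log2 0.16), Sema3b for stage in ectoderm when thinned (ratio 0.973), and in cluster 3 Plxnc1 (0.741 thinned, 0.922 without those cells), Sema4d (0.987, 0.634) and Ephb2 (0.634 without those cells). The cause was not tested beyond the fewer genes, cells or samples each setting holds.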
